A study of Capra hircus with 2 samples.

Results

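Transcripts of 4 myosin light chain genes, MYL1, MYL2, MYL4 and MYL6, were examined in longissimus thoracis, a long back muscle, of the Chinese Xuhuai breed of goat (Capra hircus). They were 4 of the 11663 RefSeq transcript accessions with reads in either of 2 RNA sequencing libraries. MYL1 was read as NM_001079578, MYL2 as NM_001035025, MYL4 as NM_001075149 and MYL6 as NM_175780, which are cattle RefSeq transcripts. They were chosen by these accessions as a family, and MYL4 also for its very large fetal excess, so the values below describe the genes and do not test them. Both files listed all 4, and all 4 passed the minimum level used for comparisons.

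One library was made from muscle of fetuses collected on day 90 (goat gestation: 150 days), and the other from muscle of goats aged 6 months. The labels name no treatment, and the sources used here give neither the number nor the sex of the animals behind each library. The sampling text attached to the 6-month sample describes the collection of embryos, so how the older muscle was taken is not stated. Each stage had 1 library, and no difference below has a replicate check.

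Myosin is the motor protein of muscle, and each of its heads is stiffened by an essential light chain and a regulatory light chain bound to the neck of the heavy chain. Different genes supply these chains in fast and slow fibres, in heart, and in smooth muscle and non-muscle cells. Fetal skeletal muscle uses an embryonic essential chain, the product of MYL4, that adult skeletal muscle largely lacks and the atria of the heart retain.

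The fetal library held 12811117 unique reads over 11393 accessions, and the 6-month library 9144138 over 10850. The deposited files pair no accession with a gene symbol, and the goat RefSeq table used here (assembly ARS1.2) held the 4 symbols but 0 of the 11663 accessions. The gene names therefore rest on the cattle assignment, and the tissue could not be checked against markers other than these genes. The other light chains, among them the slow essential chain MYL3 and the fast regulatory chain MYLPF, and the light chain kinases and phosphatase subunits were not identified and are not analysed here. Light chain genes resemble each other in sequence, and how reads that match several of them were treated is not stated beyond the word unique in the header, so reads of close relatives may be missing or misplaced. No genomic position is given, since the files name no genome build.

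MYL4 stood highest of the 4 genes in the fetal library and lowest at 6 months. At 6 months MYL1 stood highest and MYL2 next to it, a reversal of their fetal order, and MYL6 stood lowest in the fetal library and above MYL4 alone at 6 months. The levels are given in RPKM, reads scaled to the length of the transcript and to the read total of its library. This allows genes to be compared, but the transcripts are those of cattle and the reads come from goat. How far that difference of species shifts the levels of genes against each other was not tested. The 95% intervals are exact Poisson intervals for the counts and cover counting error only, not the spread between animals. The sources do not say whether duplicate reads of a molecule were removed. If they were not, the intervals are too narrow even for counting error. In bulk tissue, fewer cells of a type and less RNA per cell cannot be told apart.

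**Figure D1:**
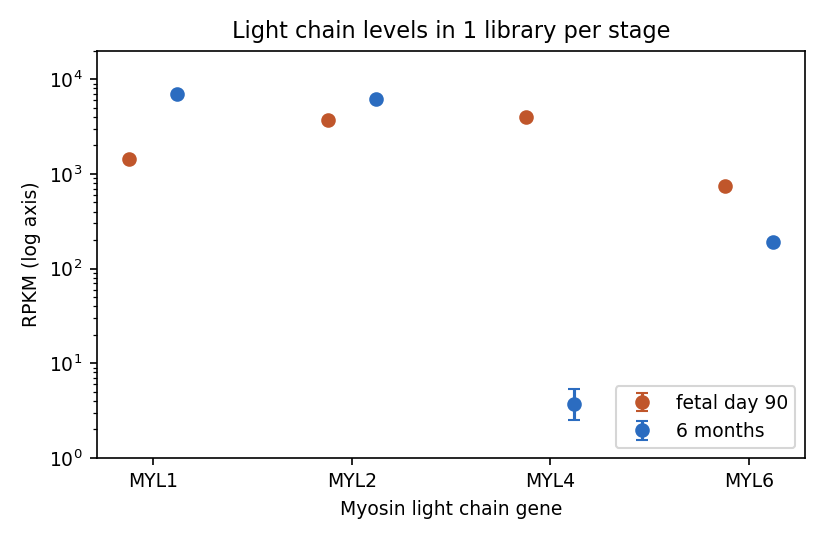
RPKM of MYL1, MYL2, MYL4 and MYL6 on a log axis, with 1 point per library (orange, fetal day 90; blue, 6 months) and 95% Poisson intervals that cover counting error only and are narrower than most points. MYL4 drops from 4009 to 3.70 RPKM, while MYL2 is at 3724 and 6249.

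MYL4, the embryonic and atrial essential chain, had 43963 fetal reads and 29 reads at 6 months over a transcript of 856 bases. Its level was 4009 RPKM (3972 to 4047) in the fetal library and 3.70 RPKM (2.48 to 5.32) at 6 months. The level was thus among the highest of the fetal library, at rank 34 of 11393 accessions, and middling at 6 months, at rank 6180 of 10850. Of the accessions listed at 6 months, 43.0% had a lower RPKM, and the median was 5.28. The 29 reads were well over the limit that a count of 0 allows (3 reads, or 3.28e-05% of the library), so reads assigned to MYL4 were detected at 6 months. Whether all of them arose from MYL4 in the older muscle was not tested. The 29 reads covered 637 bases of the MYL4 transcript. With a read span of 90 bases, at least 8 reads at different places are needed for that, so the reads did not all lie on the same 90 bases. Where on the transcript the covered bases lie is not given.

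The fetal excess of MYL4 was 9.74 log2 units, where a difference is the fetal log2(RPKM + 1) minus the 6-month value. The pseudocount of 1 understates it, and the share of reads itself was 1082 times as high in the fetal library (exact conditional binomial interval 753 to 1616). Of 116 accessions at a fetal RPKM of at least 1000, MYL4 was 1 of 3 that lay under 10 at 6 months. The others were NM_001077422, at 4464 and 2.31 RPKM, and NM_001040479, at 1062 and 2.16 RPKM. These were also the accessions nearest to MYL4 in their difference, at 10.40 and 8.39 log2 units, among 5582 others that reached 10 RPKM in either library. Only NM_001077422 came within 1 log2 unit of MYL4. Both lack a gene name in the files.

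MYL1, the essential chain of fast fibres, went the other way. It had 34490 fetal reads and 121469 reads at 6 months over 1880 bases, the longest of the 4 transcripts. Its level was 1432 RPKM (1417 to 1447) in the fetal library, at rank 100, and 7066 RPKM (7026 to 7106) at 6 months, at rank 12. The difference was -2.30 log2 units and the 6-month read share was 4.93 times the fetal share (4.88 to 4.99). Of the accessions compared, 2.63% had a lower difference, that is, a larger excess at 6 months. MYL1 took 1.33% of all 6-month reads against 0.269% of the fetal reads. The gene is known to give a long and a short fast chain from alternative starts, and the single accession does not separate them.

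MYL2, the regulatory chain of slow fibres and of the heart ventricle, was abundant in both libraries. It had 37884 fetal reads and 45374 reads at 6 months over 794 bases, and levels of 3724 RPKM (3687 to 3762) and 6249 RPKM (6192 to 6307). It ranked 40 in the fetal library and 14 at 6 months. The difference was -0.75 log2 units, short of the threshold of 1 used for a call, and the 6-month read share was 1.68 times the fetal share (1.66 to 1.70). Of the 8 accessions that reached 3000 RPKM in both libraries, MYL2 was 1 of 3 whose difference stayed within that threshold. Nearest to it in difference were NM_001192961 and NM_001075438, both at -0.75 log2 units, but at 7.24 and 29.3 RPKM in the fetal library they were far less abundant. Of the 5582 accessions searched, 1852 (33.2%) lay within 1 log2 unit of MYL2, a window that also takes in equal levels in both libraries. Of the accessions compared, 12.7% had a lower difference than MYL2, that is, a larger excess at 6 months.

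MYL6, the essential chain of non-muscle cells and smooth muscle, was higher in the fetal library. It had 6572 fetal reads and 1206 reads at 6 months over 691 bases. Its level was 742 RPKM (725 to 761) in the fetal library, at rank 132, and 191 RPKM (180 to 202) at 6 months, at rank 395. The difference was 1.95 log2 units and the fetal read share was 3.89 times that at 6 months (3.66 to 4.14). This was not unusual among the accessions compared, of which 11.4% had a larger fetal excess. MYL6 also remained well read at 6 months, where 96.4% of listed accessions were lower.

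In all, 2 of the 4 genes (MYL4 and MYL6) were called higher in the fetal library, 1 (MYL1) was called higher at 6 months and MYL2 was neither. Among the 9705 accessions compared, those that reached 1 RPKM in a library, the same rule called 35.1% higher in the fetal muscle and 9.46% higher in the older muscle. Nothing is read from the members' count, since the genes were chosen with their values known. The median difference was 0.60 log2 units over the 4 genes and 0.61 over all accessions compared, although the genes lay between -2.30 and 9.74 and the quartiles of all accessions were -0.14 and 1.30. The median thus describes none of the 4.

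**Figure D2:**
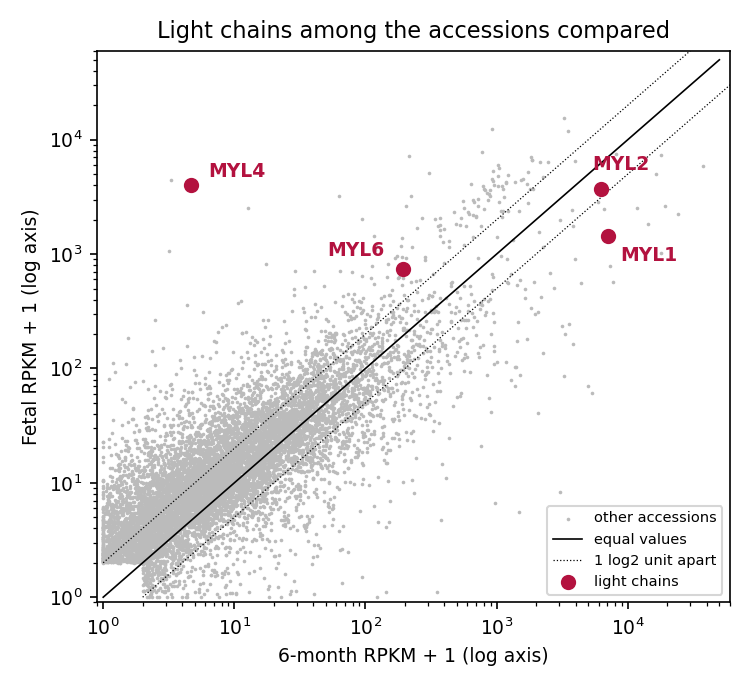
Fetal against 6-month RPKM + 1, both on log axes, for the 9705 accessions compared (grey) and the 4 light chains (red), with a line of equal values and dotted lines 1 log2 unit to either side. MYL4 lies far above the main cloud, MYL6 lies above the upper dotted line, MYL2 between the dotted lines and MYL1 below the lower one.

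RPKM is relative to the total of each library, and most accessions stood higher in the fetal library, with a median log2 ratio of 0.58 over the 8201 accessions that reached 1 RPKM in both. Relative to that shift, the differences were -2.88 for MYL1, -1.32 for MYL2, 9.21 for MYL4 and 1.38 for MYL6. No gene changed direction under any of the 4 other scalings tried. MYL2 passed the threshold with centring on the median ratio (-1.32) and on a trimmed mean ratio (-1.33), and then counted as higher at 6 months. It did not when the 50 most abundant accessions were left out of the totals (-0.98). Median centring left 2 of the 4 genes (MYL4 and MYL6) called for the fetal library and 2 (MYL1 and MYL2) for 6 months, beside 20.9% and 16.8% of all accessions. Fetal calls were 55.5% of all calls on that scale and 78.8% on the deposited RPKM.

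**Figure D3:**
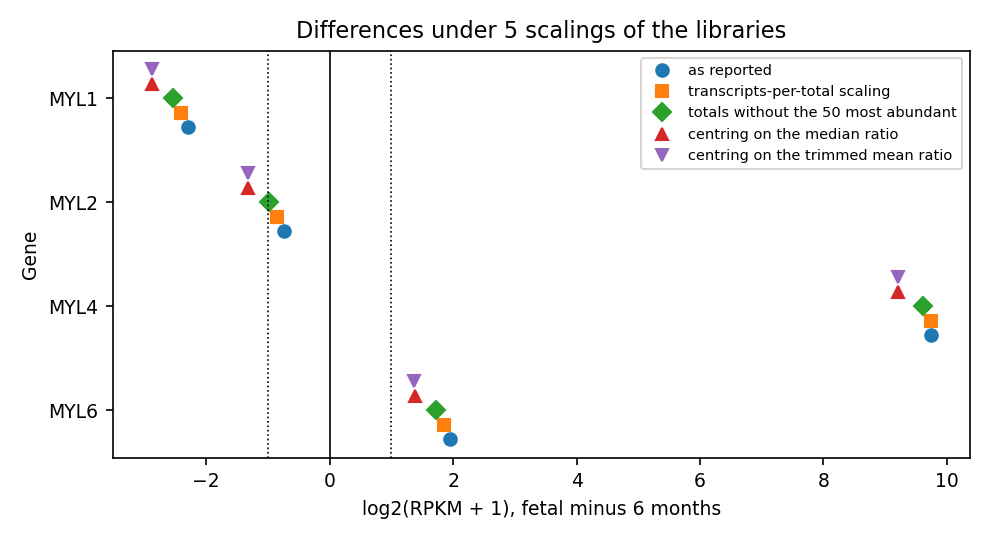
Difference in log2(RPKM + 1), fetal minus 6 months, for each gene under 5 scalings of the libraries (symbols), with dotted lines at the threshold of 1 log2 unit. Each gene stays on its side of 0, and MYL2 is the gene whose symbols lie on both sides of a dotted line, from -0.75 to -1.33.

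Ratios between the genes within a library do not depend on scaling between libraries. The level of MYL4 was 2.80 times that of MYL1 in the fetal library (2.76 to 2.84). At 6 months MYL1 was 1907 times as high as MYL4 (1328 to 2848). The fetal ratio of MYL4 to MYL1 was therefore 5339 times the 6-month ratio (3716 to 7974, exact conditional interval for the odds ratio of the reads). MYL4 and MYL2 stood close together in the fetal library, with a ratio of 1.08 (1.06 to 1.09). Their order there thus rests on a small margin and has no replicate. The interval of that ratio is too narrow if duplicate reads were not removed, and whether the order would then exceed counting error was not tested. At 6 months MYL1 exceeded MYL2 by a ratio of 1.13 (1.12 to 1.14), another narrow order, while MYL2 was 32.7 times as high as MYL6 (30.9 to 34.7). The ratio of MYL2 to MYL1 was 2.60 in the fetal library against 0.88 in the 6-month library. For MYL6 to MYL1 it was 0.518 against 0.0270. Every one of the other 3 genes was thus lower relative to MYL1 at 6 months than in the fetal library.

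The essential chains MYL1 and MYL4 differed less as a sum than singly. Together they reached 5441 RPKM in the fetal library and 7070 RPKM at 6 months, a ratio of 1.30 in favour of 6 months. MYL4 made up 73.7% of that sum in the fetal library (73.4 to 74.0) and 0.0524% at 6 months (0.0351 to 0.0753), with exact binomial intervals. By RPKM the sum was 1.46 times the level of MYL2 in the fetal library and 1.13 times at 6 months, but in reads, with no allowance for length, the ratio was 2.07 and 2.68, so its direction turns with the length correction. With the median shift removed, the log2 ratio of the fetal sum to the 6-month sum moved from -0.38 to -0.96. The size of that difference between the libraries thus depends on the scaling, while the ratio of the sum to MYL2 within a library does not. The slow essential chain MYL3 is not part of the sum.

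As shares of the summed RPKM of the 4 genes, the fetal library had 40.5% MYL4, 37.6% MYL2, 14.5% MYL1 and 7.49% MYL6. At 6 months the shares were 52.3% MYL1, 46.3% MYL2, 1.41% MYL6 and 0.0274% MYL4. Counted in reads, with no allowance for transcript length, the share of MYL2 was 30.8% in the fetal library against 27.0% at 6 months, so the direction of its share turns with the length correction. By RPKM, the fetal sum was spread over 3 sizeable chains and the 6-month sum over MYL1 and MYL2. The 4 genes took 0.959% of the reads of the fetal library and 1.84% of the 6-month reads.

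**Figure D4:**
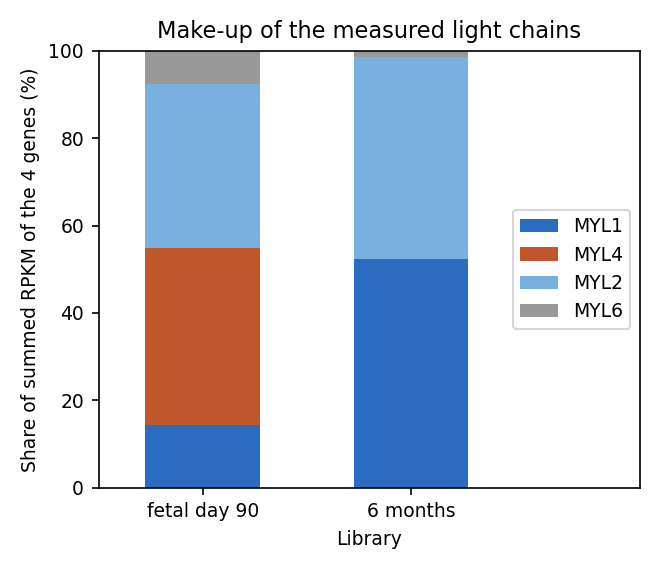
Shares of the summed RPKM of the 4 genes in each library, as stacked bars from 0 to 100%, with 1 library per bar. MYL4 fills 40.5% of the fetal bar and is too small to see at 6 months (0.0274%), where MYL1 fills 52.3%.

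Coverage is the percentage of a transcript with at least a read on it. MYL6 was covered to 99.9% by the fetal reads and 99.7% by the 6-month reads, and MYL2 had 40 and 41 bases without a read. MYL4 was covered to 94.5% in the fetal library and to 74.4% by its 29 reads at 6 months. MYL1 was covered to 79.1% and 83.1%, although its reads amounted to 1651 and 5815 read-bases per base of transcript. In all, 393 bases of MYL1 had no read in the fetal library and 318 had none at 6 months. Another 425 accessions were, like MYL1, read to a mean depth of 100 or more in both libraries, and 70 of them in the fetal and 95 of them in the older library were covered less than MYL1. The median coverage of these accessions, MYL1 included, was 91.5% and 91.8%.

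Because the deposited length of MYL1 includes bases with no read, levels were also computed per covered base. MYL1 then rose to 1810 reads per covered kilobase, scaled to the total as RPKM is, in the fetal library and to 8504 at 6 months, against 3922 and 6590 for MYL2. The order of the 4 genes within each library was the same by this measure as by RPKM. MYL4 then made up 70.1% of the fetal sum of MYL1 and MYL4, and that sum was 1.54 times MYL2 in the fetal library and 1.29 times at 6 months, the direction seen by RPKM and not that seen in reads.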

How the data were processed

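RNA of goat longissimus thoracis was sequenced in 2 libraries, 1 per stage, after Trizol extraction and standard Illumina preparation, per the labels' protocols. For each transcript accession the deposited files give, per the file headers, the count of unique reads, the length, the percent covered and the authors' RPKM. The sources used here do not say how reads were aligned, counted by strand or shared between related genes, or on which build. The counts summed to the header totals, and the deposited RPKM values were recovered from them within 1 part in 1000000. Accessions with 1 read had a covered span of 90 bases.

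Differences were log2(RPKM + 1), fetal minus 6 months, over accessions that reached 1 RPKM in a library, and 1 log2 unit made a call. With 1 library per stage no test and no p-value was possible, and intervals (95%) compare these libraries only. Centring was applied to the RPKM before the pseudocount, split between the libraries. The calls and the read share intervals were tried on simulated counts drawn with counting error only, which says nothing about spread between animals. The 4 genes, the gene lists and the naming rule (members, then the 2 accessions nearest in difference to MYL4 and to MYL2) were chosen with earlier results of these data known. The pathway and marker lists could not be used without symbols, and no sequence was available to print. Values were computed with SciPy 1.17.1, NumPy 2.4.6 and pandas 2.3.3 under Python 3.11.15, and plotted with matplotlib 3.10.9.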

Additional observations from a re-analysis of the deposited data

How the results depend on the processing

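No paired analysis was possible because each stage had 1 library, and no replicate could be left out. The direction of all 4 differences was the same under every alternative tried, and MYL2 alone crossed the threshold, with both centrings. With transcripts-per-total scaling the differences were -2.41 for MYL1, -0.85 for MYL2 and 1.85 for MYL6. Without the 50 most abundant accessions in the totals they were -2.53, -0.98 and 1.73. With centring on the median ratio they were -2.88, -1.32 and 1.38, and on the trimmed mean ratio -2.88, -1.33 and 1.37, with MYL4 at 9.21. A pseudocount of 5 gave 8.85 for MYL4. The count of accessions higher in the fetal library (3411) became 1811 with a pseudocount of 5, 2033 and 2027 with the centrings and 1051 at a threshold of 2. The count higher at 6 months (918) became 1629 and 1632 with the centrings and 339 at a threshold of 2. Length mattered for the shares. With reads in place of RPKM, MYL4 made up 56.0% of MYL1 plus MYL4 in the fetal library and 0.0239% at 6 months. MYL2 then made up 30.8% of the 4 genes in the fetal library and 27.0% at 6 months, so its order between libraries turned round. With lengths reduced by the read span, the fetal share of MYL4 was 74.9% and those of MYL2 were 38.1% and 48.0%. With covered lengths, chosen after seeing the data, they were 70.1%, 36.6% and 43.1%. The ratio of MYL1 plus MYL4 to MYL2, also tried under other lengths after seeing the data, was 2.07 in the fetal library and 2.68 at 6 months in reads, 1.42 and 1.05 with lengths reduced by the read span, and 1.54 and 1.29 with covered lengths. Depth limits mainly MYL4 at 6 months, at 29 reads.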
